A study of Mus musculus with 4 samples.

Results

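The heat shock genes described here are 10 chaperone genes of the mouse: Hspa1a, Hspa1b, Hspa8, Hspa5, Hsph1, Dnajb1, Hsp90aa1, Hsp90ab1, Hspb1 and Hspe1. The genes were selected on signals of these same arrays, being proposed for a comparison of the study's 2 experiments with earlier results known, and they were read by all probe sets whose single platform gene symbol is one of these names. A probe set is the group of short probes on the array that reads 1 transcript. The rule gave 24 probe sets for 9 of the 10 genes, out of 45037 that are not controls, and 21 of them, for 8 genes, passed the filter on low signals. Hsp90ab1, the constitutive cytosolic HSP90, was not analysed here because no probe set had it as its single symbol.

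The arrays measured RNA of mesothelial and submesothelial cells, the sheet that covers the liver and the layer beneath it, taken surgically from C57BL/6 embryos at embryonic day 17.5. There were 2 samples without p57 (p57-/-, given in the labels also as Kip2 -/-) and 2 wild-type samples (p57+/+), and the sample titles place 1 of each genotype in experiment 2 and 1 of each in experiment 1. No treatment is given, and the labels leave unstated whether a sample was 1 embryo or a pool and what samples of an experiment had in common. P-values thus reflect the spread among these 4 samples alone, and some of it may be technical.

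Heat shock proteins are chaperones that bind unfolded proteins and help them fold, and many are made in larger amounts under stress. In the cytosol the response is driven by the heat shock factor HSF1, which binds repeated GAA units called heat shock elements. Unfolded proteins in the endoplasmic reticulum raise a separate set of chaperones through another promoter element. Hspa8, Hsp90ab1, Hspa5 and Hspe1 are also made at high levels in unstressed cells, while Hspa1a and Hspa1b are the stress-inducible HSP70 genes.

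Hspa1a and Hspa1b are neighbouring genes on chromosome 17 in the RefSeq gene order, with Hspa1l beside them. The 250 bases before the transcript start are shown for this pair because their signals were low on the same arrays, for Hsph1 because it had the lowest adjusted p of the genes described, and for Hspe1 because it held the longest heat shock element while its signal differed little. They are from RefSeq, build GRCm38.p6, and 7 of the 10 genes had an entry. Capitals mark the heat shock element letters searched, TTCNNGAA and GAANNTTC, which read the same on both strands and can overlap. The windows are chr17:34972157-34972406 on the minus strand for Hspa1a, chr17:34959239-34959488 on the minus strand for Hspa1b, chr5:149636337-149636586 on the minus strand for Hsph1 and chr1:55087898-55088147 on the plus strand for Hspe1.
Hspa1a: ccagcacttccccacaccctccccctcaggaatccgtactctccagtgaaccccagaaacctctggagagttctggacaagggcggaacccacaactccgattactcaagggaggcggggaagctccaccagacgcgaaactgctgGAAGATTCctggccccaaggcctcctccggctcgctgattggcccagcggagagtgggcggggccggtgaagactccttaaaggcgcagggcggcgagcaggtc
Hspa1b: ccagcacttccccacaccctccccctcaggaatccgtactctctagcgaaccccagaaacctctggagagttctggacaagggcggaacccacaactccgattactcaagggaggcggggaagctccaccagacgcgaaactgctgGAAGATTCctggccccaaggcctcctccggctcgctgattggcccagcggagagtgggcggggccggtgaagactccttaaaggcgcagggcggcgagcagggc
Hsph1: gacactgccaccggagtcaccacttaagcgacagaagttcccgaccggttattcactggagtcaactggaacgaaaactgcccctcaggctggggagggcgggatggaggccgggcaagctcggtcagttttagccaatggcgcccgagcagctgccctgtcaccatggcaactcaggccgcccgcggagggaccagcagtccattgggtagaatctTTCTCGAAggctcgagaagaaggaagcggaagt
Hspe1: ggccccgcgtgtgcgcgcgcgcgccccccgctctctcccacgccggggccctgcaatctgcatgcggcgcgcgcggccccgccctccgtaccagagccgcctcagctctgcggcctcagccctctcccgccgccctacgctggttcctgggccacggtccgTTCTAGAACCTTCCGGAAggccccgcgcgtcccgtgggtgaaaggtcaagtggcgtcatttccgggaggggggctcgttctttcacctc

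The Hspa1a and Hspa1b windows were identical at 247 of 250 bases. Counted from 1 at the 5′ end, with the Hspa1a base first, the differences were C44T, T47C and T249G. Both windows held GAAGATTC, from 104 to 97 bases before the start. The Hsph1 window held TTCTCGAA from 33 to 26 bases before it. In Hspe1, which encodes the small cochaperonin of mitochondria, TTCTAGAA, GAACCTTC and TTCCGGAA overlapped in 1 run from 89 to 72 bases before the start. That run holds the triple GAANNTTCNNGAA on both strands. Hspb1, the small heat shock protein HSP25, held GAAGTTTC and GAACCTTC, and the Dnajb1 window held no match to any letters searched. Dnajb1 and Hsph1 each had 2 promoter entries, of which 1 was searched. Hspa5, the endoplasmic reticulum HSP70 called BiP, held instead a match to the endoplasmic reticulum stress element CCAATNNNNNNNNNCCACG, searched on both strands, from 65 to 47 bases before its start. Of 32851 RefSeq promoters cut the same way, 7.17% held TTCNNGAA, 6.69% GAANNTTC, 0.466% the triple and 0.113% the endoplasmic reticulum stress element. The matches describe letters in the window only.

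The MAS5 software called 48.5% to 50.1% of the probe sets Present on an array, and also gives the signal, a brightness on a linear scale. The genotype labels matched Cdkn1c, the gene of p57, which was Absent on both p57-/- arrays (7.28 and 7.79) and at 9866 and 10255 in p57+/+ (limma adjusted p = 1.80e-08), at least 760-fold lower in p57-/-. Mesothelial genes were present, with all 12 of the markers listed called Present on each array, and so were genes of hepatocytes, erythroid cells, granulocytes, macrophages and endothelium. In such mixed samples fewer cells of a type and less RNA per cell cannot be told apart. Sex-linked genes differed among the arrays. Xist, which is expressed from the inactive X chromosome of female cells, had 6412 in experiment 2 and 7889 in experiment 1 in p57-/-, against 86.7 in experiment 2 and 12199 in experiment 1 in p57+/+. The Y-linked gene Kdm5d had 275 and 228 in p57-/- and 425 and 24.4 in p57+/+, in the same order of experiments. Between the p57+/+ arrays, experiment and sex cannot be told apart, while both p57-/- arrays held transcripts of both kinds.

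The first comparison is of experiment 2 with experiment 1, and it is given without a test because the genes were proposed for it. The inducible HSP70 pair stood apart. The brightest Hspa1b probe set was lower in experiment 2 by 3.56-fold in p57-/- and 2.53-fold in p57+/+. Within p57-/-, Hspa1a was also lower in experiment 2, and it was Absent on both p57+/+ arrays. The brightest probe sets of the 7 other genes differed by at most 0.32 on the log2 scale within a genotype and by at most 0.13 as a mean of both genotypes.

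The brightest Hspa1b probe set (1452318_a_at) had 272 in p57-/- and 231 in p57+/+ in experiment 2, against 969 in p57-/- and 585 in p57+/+ in experiment 1. Both experiment 2 arrays were below both experiment 1 arrays, and the highest signal was that of p57-/- in experiment 1. The log2 difference was -1.59 ± 0.35 (mean and SD over the 2 genotypes), with -1.83 in p57-/- and -1.34 in p57+/+, or 3.56-fold and 2.53-fold lower in experiment 2. A second probe set (1427126_at) gave 99.2 in p57-/- and 83.1 in p57+/+ in experiment 2, against 335 in p57-/- and 257 in p57+/+ in experiment 1, which is 3.23-fold lower in experiment 2. The third (1427127_x_at) gave 167 in p57-/- and 200 in p57+/+ in experiment 2, against 383 in p57-/- and 288 in p57+/+ in experiment 1, a smaller difference of 1.82-fold. The 3 probe sets thus shared a direction with no overlap of the experiments and disagreed in size.

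Hspa1a had 1 probe set (1452388_at), with 77.7 in p57-/- and 85.8 in p57+/+ in experiment 2, against 317 in p57-/- and 164 in p57+/+ in experiment 1. It was called Present only on the p57-/- array of experiment 1 and was left out of the genotype test for that reason. In p57-/- the log2 difference was -2.03, against a signal that was itself Absent in experiment 2. Both p57+/+ arrays were Absent, so no difference is given for them. Hspa1a and Hspa1b have near-identical transcripts, so their probe sets may read both genes and were not counted as separate evidence.

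**Figure D1:**
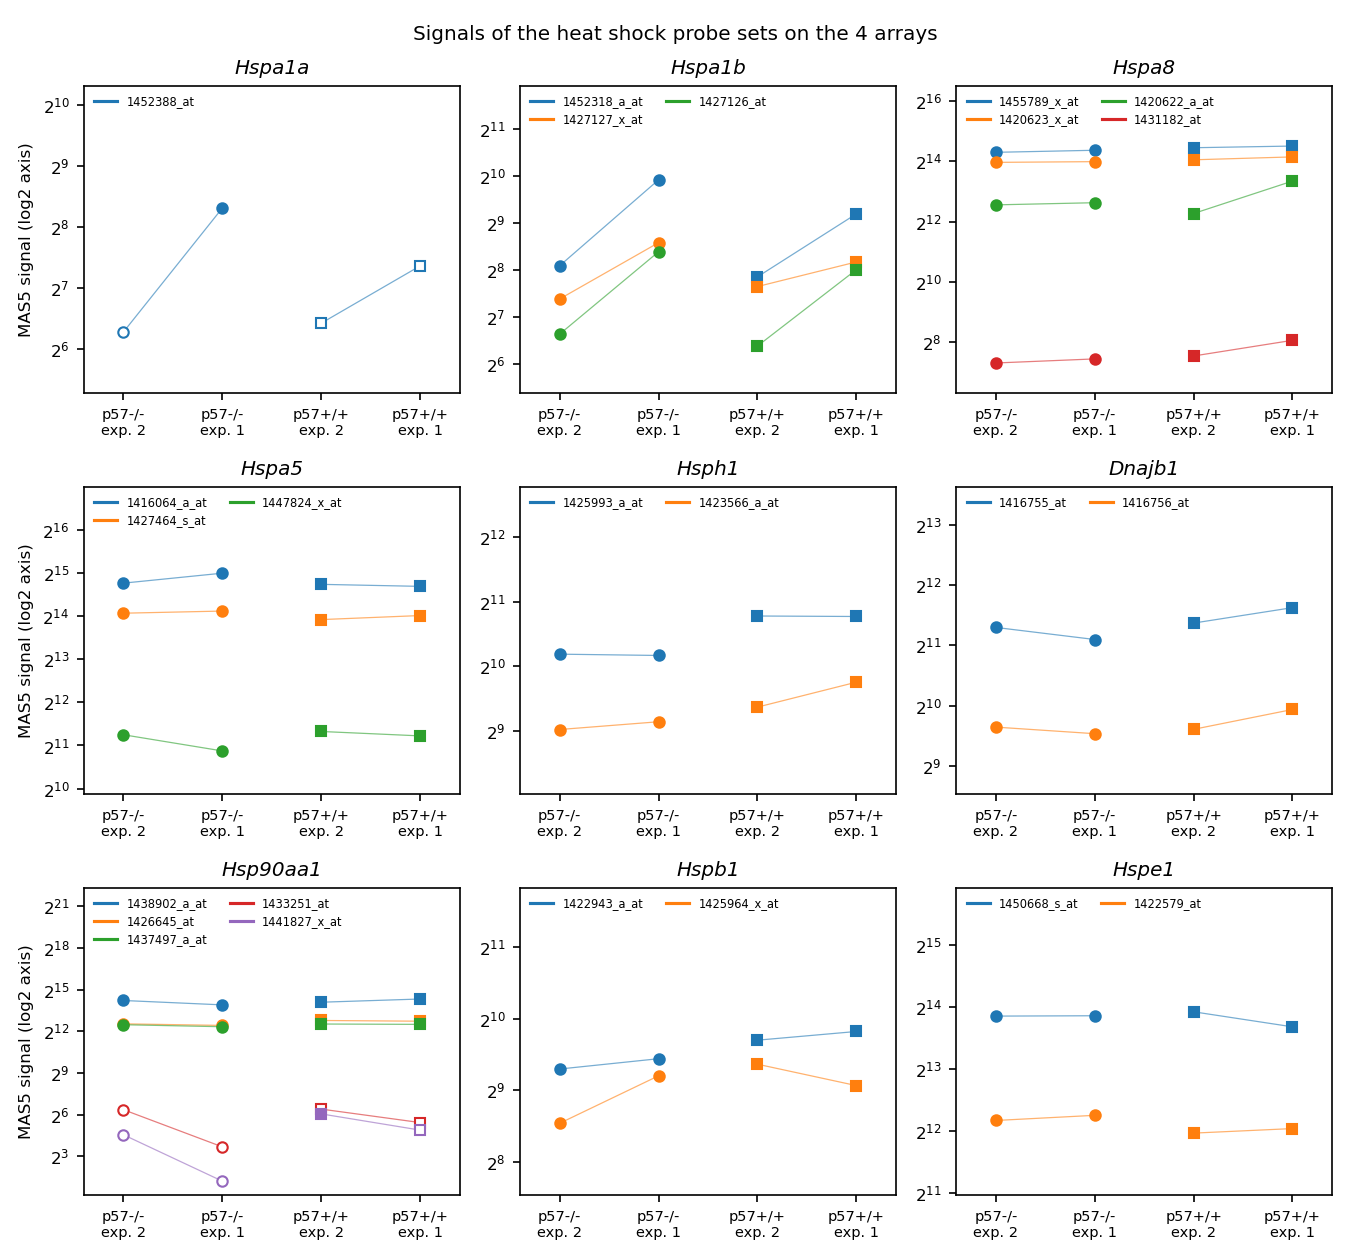
MAS5 signal (log2 axis) of each probe set of the 9 heat shock genes on the 4 arrays, with p57-/- as circles and p57+/+ as squares, open where the call was not Present and joined within a genotype. Hspa1b is low on both experiment 2 arrays, and Hspa1a was Present only on the p57-/- array of experiment 1. Hsph1 is lower on both p57-/- arrays with both probe sets.

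Among the constitutive and other inducible genes, the difference between experiments was small on the brightest probe sets. Hspa8, the constitutive cytosolic HSP70, had 20229 in p57-/- and 22487 in p57+/+ in experiment 2, against 21210 in p57-/- and 23376 in p57+/+ in experiment 1 on its brightest probe set, a log2 difference of -0.06 ± 0.01. On 2 of its other 3 probe sets, the p57+/+ array of experiment 1 stood above the rest. The first (1420622_a_at) had 6014 in p57-/- and 4927 in p57+/+ in experiment 2, against 6321 in p57-/- and 10411 in p57+/+ in experiment 1, so that the p57+/+ difference was -1.08 and the p57-/- difference -0.07. The second (1431182_at) had 156 in p57-/- and 184 in p57+/+ in experiment 2, against 172 in p57-/- and 264 in p57+/+ in experiment 1, a p57+/+ difference of -0.52. The Hspa8 probe sets therefore disagreed for the p57+/+ samples.

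Dnajb1, an HSP40 that hands clients to HSP70, had 2518 in p57-/- and 2647 in p57+/+ in experiment 2, against 2192 in p57-/- and 3161 in p57+/+ in experiment 1. The p57-/- difference was 0.20 and the p57+/+ difference -0.26, so the experiments overlapped. Hsp90aa1, the inducible cytosolic HSP90, showed the same kind of overlap, with 19039 in p57-/- and 17461 in p57+/+ in experiment 2, against 15296 in p57-/- and 20498 in p57+/+ in experiment 1 (1438902_a_at). Hsph1, an HSP110 that exchanges the nucleotide of HSP70, differed by 0.01 ± 0.01 between experiments on its brightest probe set and by -0.25 ± 0.19 on its other one (SD over the 2 genotypes).

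Hspa5 had 27895 in p57-/- and 27357 in p57+/+ in experiment 2, against 32740 in p57-/- and 26488 in p57+/+ in experiment 1 (1416064_a_at). Its dimmest probe set (1447824_x_at) was the only tested one whose experiment 2 arrays both lay above both experiment 1 arrays, at 2434 in p57-/- and 2566 in p57+/+, against 1877 in p57-/- and 2390 in p57+/+. The log2 differences of Hspb1 and Hspe1 were -0.13 ± 0.02 and 0.12 ± 0.18 on their brightest probe sets (SD over the 2 genotypes). On these probe sets the Hspb1 difference was negative in both genotypes, and that of Hspe1 was positive only in p57+/+. The second Hspb1 probe set (1425964_x_at) had opposite signs, with -0.66 in p57-/- and 0.30 in p57+/+. For Hsp90aa1, 2 dim probe sets stood outside the filter on low signals. One (1433251_at) was Absent on all 4 arrays, at 12.7 to 83.9, and the other (1441827_x_at) was Present only on the p57+/+ array of experiment 2, at 66.0, and lay between 2.30 and 29.4 elsewhere.

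Of the 21 tested probe sets, 2 were at least 2-fold lower in experiment 2 in both genotypes, both of Hspa1b, against 0.202% of all 22800 tested. None was 2-fold higher in both (0.18% of all). By direction alone, 11 of the 21 were lower in experiment 2 in both genotypes, against 25.1% of all, and 4 higher, against 25.2%. Both experiment 2 arrays lay below both experiment 1 arrays for 4 of the 21, which were 3 of Hspa1b and 1 of Hspa8, against 15.5% of all, and above them for 1, against 15.2%. The genes were proposed for this comparison, so nothing is read from these shares. Over the 8 genes tested, the median difference was -0.05, beside 0.01 for all 11656 genes. Their range, from -1.59 for Hspa1b to 0.12 for Hspe1, shows that the median hides 1 gene far from the rest.

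**Figure D2:**
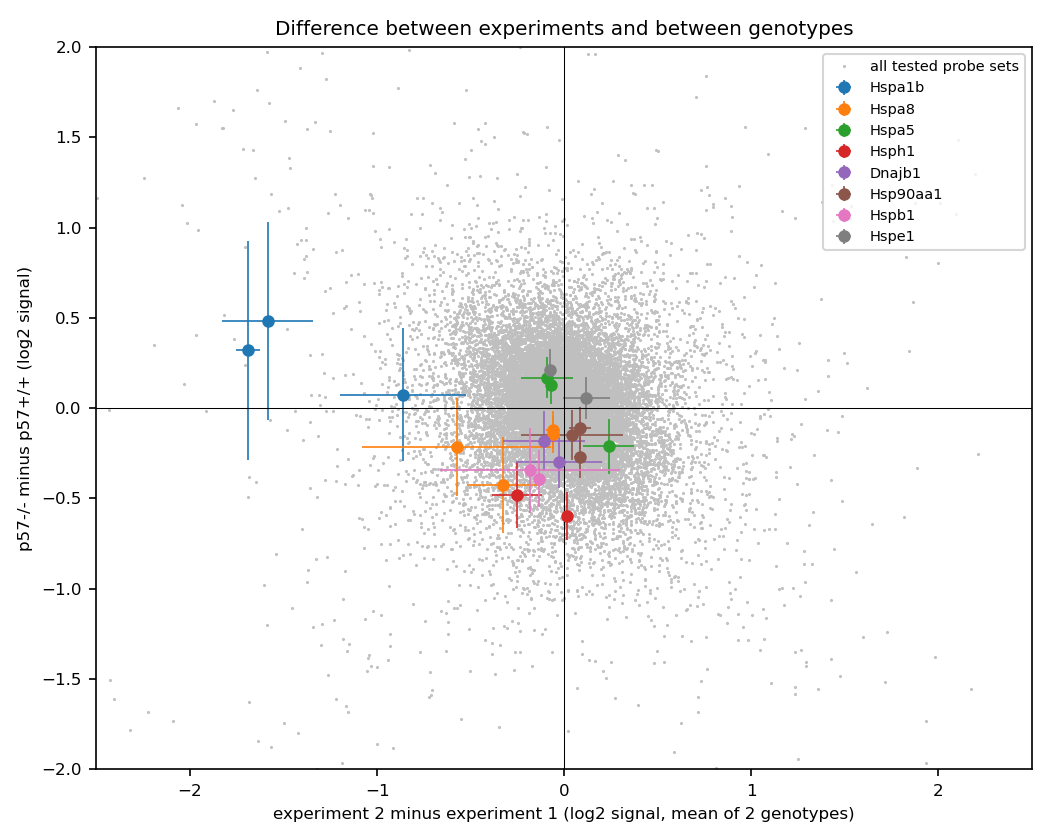
Log2 difference of experiment 2 minus experiment 1 (x axis, mean of the 2 genotypes, bars spanning both) against the log2 change of p57-/- minus p57+/+ (y axis, bars 1 SE) for the 21 tested heat shock probe sets (coloured) and all tested probe sets (grey), of which 99 lie outside the axes. The 3 Hspa1b probe sets lie at -0.86 to -1.69 on the x axis, and Hsph1 has the lowest position on the y axis, -0.60.

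The second comparison sets p57-/- against p57+/+. No heat shock probe set passed the test over all probe sets (limma, adjusted p threshold 0.05), in which 0 of 22800 were higher and 1 lower, or 0.00439%. At an unadjusted p under 0.05, 4 of the 21 were lower, namely both Hsph1 probe sets and 1 each of Hspb1 and Hsp90aa1, against 3.75% of all tested, and 0 were higher, against 3.93%. Both p57-/- arrays lay below both p57+/+ arrays for 9 of the 21, against 18.8%, and above them for 3, against 19.8%. Probe sets of a gene share its transcript, so by gene the counts were 4 of 8 below, against 19% of genes, and 1 of 8 above, against 21.7%. By direction alone, 4 of 8 genes were lower in p57-/- in both experiments, against 26.7% of all, and 2 higher, against 29.6%. The genes were selected on signals of these same arrays, so nothing is read from these shares either.

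The gene with the lowest p was Hsph1. Its brightest probe set (1425993_a_at) had 1165 in experiment 2 and 1149 in experiment 1 in p57-/-, against 1756 and 1747 in p57+/+. The arrays of a genotype nearly coincided, and the genotypes were apart in both experiments. The log2 change was -0.60 (SE 0.13, limma unadjusted p = 0.00136), but over all probe sets it did not pass (adjusted p = 0.519). The other Hsph1 probe set had 518 and 564 in p57-/-, against 660 and 862 in p57+/+, with a log2 change of -0.48 (SE 0.18, limma adjusted p = 0.606).

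Hspb1, a small heat shock protein that also binds actin filaments, had 629 in experiment 2 and 694 in experiment 1 in p57-/-, against 830 and 903 in p57+/+ (1422943_a_at). The groups did not overlap, and the log2 change was -0.39 (SE 0.16, limma adjusted p = 0.626). Its second probe set (1425964_x_at) was lower in experiment 2 only, with 372 and 589 in p57-/-, against 659 and 536 in p57+/+. Dnajb1 had a log2 change of -0.30 (SE 0.14, limma adjusted p = 0.653) on its brighter probe set, of -0.07 in experiment 2 and -0.53 in experiment 1. On its other one, the p57-/- signals of 801 and 743 overlapped the p57+/+ signals of 781 and 981.

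The 3 tested Hsp90aa1 probe sets had log2 changes from -0.27 to -0.11. The one at -0.27 (1426645_at, SE 0.11, limma adjusted p = 0.631) had 5933 and 5483 in p57-/-, against 7016 and 6767 in p57+/+. The brightest was at 0.12 in experiment 2 and -0.42 in experiment 1, and its mean change was -0.15 with all arrays and 0.0091 without p57-/- replicate 1, the array of experiment 1. The 4 Hspa8 probe sets had mean changes from -0.43 to -0.12, and 3 of them had both p57-/- arrays below both p57+/+ arrays. The exception was the probe set at 10411 on a single p57+/+ array, whose change was 0.29 in experiment 2 and -0.72 in experiment 1.

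Hspa5 and Hspe1 were not lower in p57-/- on most probe sets. Hspa5 had log2 changes of 0.17 (SE 0.11) and 0.13 (SE 0.11) on its brighter probe sets, with no overlap of the genotypes, and -0.21 (SE 0.15) on the dimmest. Hspe1 had 4614 in experiment 2 and 4888 in experiment 1 in p57-/-, against 4005 and 4214 in p57+/+ (1422579_at), a log2 change of 0.21 (SE 0.12, limma adjusted p = 0.694). On its brighter probe set the genotypes overlapped, with a change of 0.05 (SE 0.12).

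Hspa1b, which differed most between experiments, had log2 changes between genotypes of 0.48 (SE 0.55), 0.32 (SE 0.61) and 0.07 (SE 0.37) for its 3 probe sets, and the genotypes overlapped on each. The brightest was higher in p57-/- in experiment 2, by 0.24, and in experiment 1, by 0.73. With the experiment number added to the fit, the change of 0.48 had an SE of 0.21 (limma adjusted p = 0.485). The arrays of a genotype were up to 3.56-fold apart, and leaving out 1 array sets 1 experiment against the mean of both. The change was then -0.43 without p57-/- replicate 1, -0.19 without p57+/+ replicate 2 and up to 1.40 with another array left out. For Hspa1a, Present on 1 array, no change between genotypes is given. Over the 8 genes tested, the median change was -0.15, beside 0.02 for all genes tested. It was -0.07 in experiment 2 and -0.26 in experiment 1.

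Other chaperone genes, listed by compartment, were set beside the heat shock genes described. In these lists no gene passed in either direction (limma adjusted p), against 0% of all 11656 genes higher and 0.00858% lower in p57-/-. Of 20 other cytosolic targets of HSF1 and co-chaperones, 18 were tested, of which 7 were lower and 7 higher in experiment 2 in both genotypes, against 23.7% and 26.9% of all genes tested, with a median difference of 0.00. Hspb6 and Hspb8, small heat shock proteins, had the largest differences of the list, each at -0.66. Hspb8 had 387 in p57-/- and 227 in p57+/+ in experiment 2, against 539 in p57-/- and 407 in p57+/+ in experiment 1. Both experiment 2 arrays were thus below both experiment 1 arrays. Between genotypes, Hspb8 also had the largest change of the list, 0.59 (SE 0.29), and Hspa4l, an HSP110 like Hsph1, had the next, -0.40 (SE 0.17). The list's median change between genotypes was -0.01.

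Of the heat shock factors and their binding protein, Hsf2 and Hsbp1 were tested. They had log2 changes between genotypes of -0.05 (SE 0.22) and 0.15 (SE 0.12) and differences between experiments of -0.02 and -0.11. All 8 subunits of CCT, the chaperonin that folds actin and tubulin, stayed between -0.08 and 0.07 between experiments, the ends being Cct2 and Cct6a, and between -0.05 and 0.09 between genotypes, with Cct4 at 0.09 (SE 0.11) and Tcp1 at 0.07 (SE 0.11).

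The 8 mitochondrial chaperone and protease genes had a median change of 0.11 between genotypes, and 6 of them were higher in p57-/- in both experiments, against 29.6% of all genes. Grpel2, a nucleotide exchange factor of mitochondrial HSP70, had 0.26 (SE 0.17), and Hspa9, that HSP70 itself, 0.21 (SE 0.11). Between experiments, Grpel1 was at -0.25 and Dnaja3 at -0.22. Hspd1, the chaperonin that works with Hspe1, was at 0.04 (SE 0.11) between genotypes.

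The 18 genes of endoplasmic reticulum chaperones and the unfolded protein response are of the pathway of Hspa5. Their median change was 0.03 between genotypes and -0.02 between experiments. In experiment 2, 7 were lower and 3 higher in both genotypes, against 23.7% and 26.9% of all genes tested. Hyou1, an HSP110 of this compartment, differed most on both counts, at -0.48 (SE 0.19, limma adjusted p = 0.623) between genotypes and -0.39 between experiments. Herpud1, which helps degrade misfolded proteins, was at 0.38 (SE 0.12, limma adjusted p = 0.549) between genotypes, and Pdia4, a disulfide isomerase, at 0.34 between experiments.

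**Figure D3:**
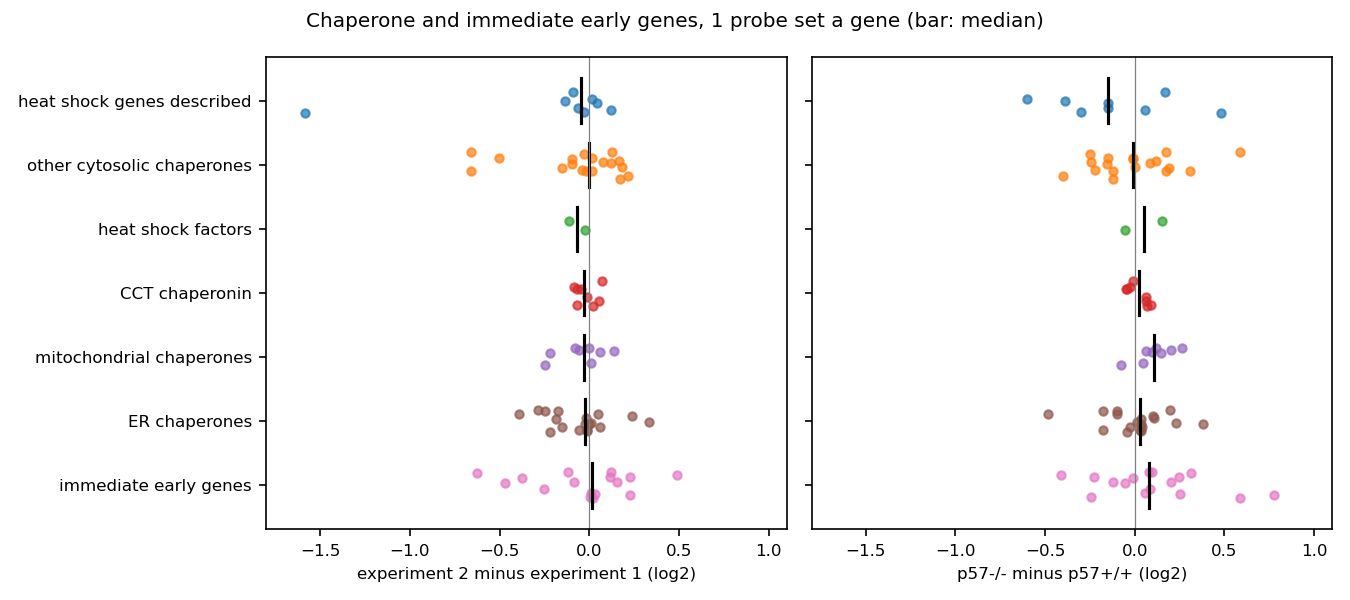
Log2 difference of experiment 2 minus experiment 1 (left) and log2 change of p57-/- minus p57+/+ (right) for each tested gene of 7 lists, 1 probe set a gene, with the list's median as a bar. The median of each list lies between -0.15 and 0.11, and Hspa1b at -1.59 is the only gene beyond -1 on the left.

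Immediate early genes, which many stresses induce within minutes, were listed beside the chaperones. Of 16 tested, 6 were higher and 2 lower in experiment 2 in both genotypes, against 26.9% and 23.7% of all genes tested. Their median difference was 0.01. Junb had 118 in p57-/- and 153 in p57+/+ in experiment 2, both Absent, against 293 in p57-/- and 146 in p57+/+ in experiment 1, both Present, so only the p57-/- array of experiment 1 stood out. Egr1 went the other way, at 0.49 as a mean of both genotypes. Between genotypes, Atf3 had the largest change, 0.77 (SE 0.27, limma adjusted p = 0.578). Atf3 was dim, at 99.3 to 199, and was Absent on the p57+/+ array of experiment 2. Klf6 was at 0.59 between genotypes (SE 0.14, limma adjusted p = 0.519).

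Cell type markers also moved with the experiments and the genotypes. The summed signal of the 12 mesothelial markers was 23752 in p57-/- and 24100 in p57+/+ in experiment 2, against 20034 in p57-/- and 19323 in p57+/+ in experiment 1, and 9 of the 12 were higher in experiment 2 in both genotypes, against 26.9% of all genes. The summed signal of the 5 erythroid markers tested was 64976 in experiment 2 and 50627 in experiment 1 in p57-/-, against 75412 and 71272 in p57+/+, and all 5 were lower in p57-/- in both experiments, against 26.7% of all genes. On the p57-/- array of experiment 1, where Hspa1b was highest, 7 of 7 endothelial, 6 of 7 mesenchymal, 5 of 7 macrophage, 5 of 8 granulocyte and megakaryocyte, 2 of 7 hepatocyte, 2 of 12 mesothelial and 0 of 5 erythroid markers tested also had their highest signal. The endothelial sum was 11058 there and 8430 to 9432 on the other arrays. For the mesenchymal list it was 81319 there and 62881 to 73973 elsewhere, and for macrophages 25905 there and 19279 to 23540 elsewhere. Not all sums peaked there. The granulocyte and megakaryocyte sum was 149998 in p57-/- in experiment 2 and 148664 in p57-/- in experiment 1. The hepatocyte sum was 385144 in p57+/+ in experiment 2 and 360382 in p57-/- in experiment 1. The share of all tested genes with their highest signal on that array was not counted, so nothing is read from these marker counts. The part of these cell types in the heat shock values was not tested. The ratio of 3′ to 5′ signal of Gapdh, a sign of RNA integrity, was 1.11 in p57-/- and 1.18 in p57+/+ in experiment 2, against 0.945 in p57-/- and 0.988 in p57+/+ in experiment 1. It was thus higher in experiment 2, and its part in the Hspa1b difference was not tested either.

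The genes whose pattern was most like that of Hspa1b over the 4 arrays were sought among 10411 other genes with probe sets called Present on all of them. Likeness was the root mean square difference of log2 signals, each centred on its own mean. The 5 nearest were Slc18a2 at 0.09, Minar1 at 0.23, Efna1 at 0.26, Ltbp2 at 0.29 and Hbb-y at 0.30, and with 4 arrays such a match is a description only. Slc18a2, which encodes a vesicle transporter of monoamines, was dim, with 39.5 in p57-/- and 38.3 in p57+/+ in experiment 2, against 145 in p57-/- and 81.5 in p57+/+ in experiment 1. Hbb-y, an embryonic beta-like globin of the first red cells, had 1373 in p57-/- and 1232 in p57+/+ in experiment 2, against 3211 in p57-/- and 3245 in p57+/+ in experiment 1. All 3 tested Hbb-y probe sets were lower in experiment 2, by 2.47-fold to 2.79-fold, with no overlap of the experiments. Efna1, an ephrin ligand, was 2.60-fold lower in experiment 2 on the nearest probe set and 2.28-fold lower on its other one. By the same measure the brightest probe sets of the 7 other heat shock genes lay at 0.76 to 0.97 from Hspa1b. Hspa1a lay at 0.16, but it was Present on 1 array only and its probe set may read both genes.

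**Figure D4:**
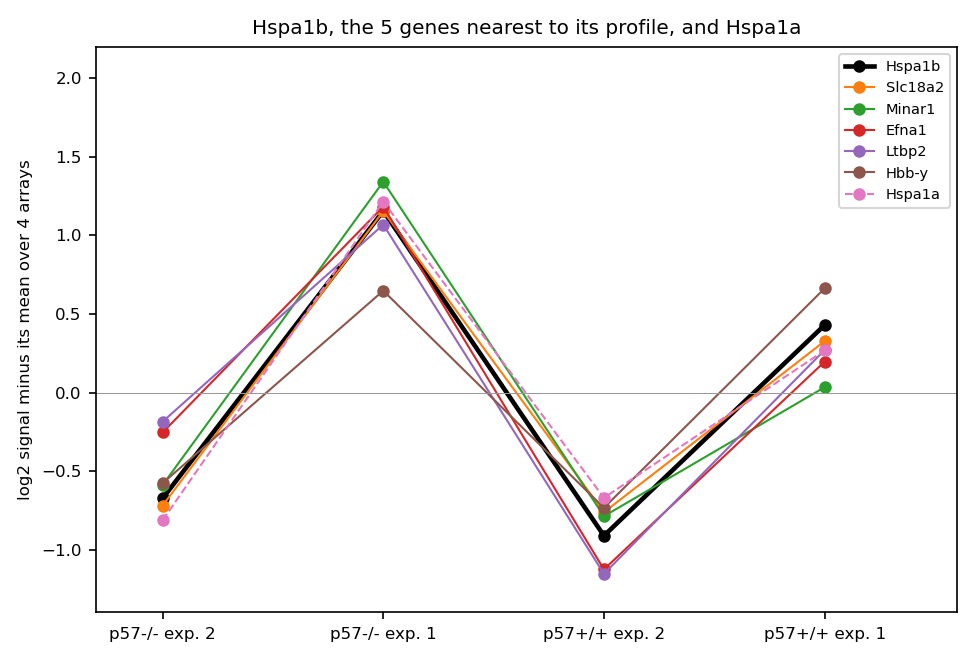
Log2 signal minus its mean over the 4 arrays for Hspa1b (thick line), the 5 genes nearest to it and Hspa1a (dashed), by array. Hspa1a was Present only on the p57-/- array of experiment 1. For Hspa1b and the 5 genes nearest to it, the experiment 1 values lie above the experiment 2 values of the same genotype. Hbb-y differs little between genotypes (1373 and 1232 in experiment 2).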

How the data were processed

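Gene expression was measured on 4 single-colour Affymetrix arrays, 2 of p57-/- and 2 of p57+/+ cells, from 250 ng of total RNA each with a labelling kit that primes from the 3′ end, per the labels' protocols. For every probe set the authors deposited a MAS5 signal intensity (linear scale, so named in the submitters' processing notes) and a detection p-value, from which come the Absent, Marginal and Present calls, per the file headers. The software's version is not given in the sources used here. After trimming 2% at each end, the mean was 500.003 on every array, so arrays had been scaled to 1 target, which hides a change in total RNA. The deposited series value table repeated these signals to within 0.0005% (linear, uncentred), with column medians of 76.4 to 83.0.

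Signals were log2 transformed with no further normalization. The test took the 22800 probe sets, of 11656 genes, with a Present call on 2 or more arrays and used limma 3.58.1 (R 4.3.3; lmFit and eBayes, variance trend on), two-sided, with Benjamini-Hochberg adjustment over all of them. The number of arrays limits the precision. Values by gene use its probe set of highest mean log2 signal. Experiments were compared without a test. The Cdkn1c bound is the p57+/+ mean log2 signal against the higher of each p57-/- array's own signal and its lowest Present signal, 12.4 to 15.4 over all arrays.

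Symbols came from the platform annotation (34945 probe sets with 1 symbol, 932 with several, 9160 with none). The members and the gene lists were chosen with earlier results of these data known. The genes named were every member, Cdkn1c, of each chaperone or immediate early list the 2 genes of largest difference between experiments and of largest change between genotypes, and the 5 genes most like the member of widest range. Hspd1 and the sex-linked genes were named after their values were seen. Alternatives were the experiment number as a block, no variance trend, other filters, quantile normalization, a pseudocount of 16, the mean of a gene's probe sets, and leaving out each array.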

Additional observations from a re-analysis of the deposited data

Results flagged for a closer look

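For 4 genes the difference between experiments had opposite signs in the 2 genotypes on the brightest probe set. With 1 array of each kind this was not tested. Expressed as the p57-/- difference less the p57+/+ difference of log2 signals, it was 0.547 for Hsp90aa1 (0.316 in p57-/- and -0.231 in p57+/+), 0.456 for Dnajb1 (0.200 and -0.256), -0.278 for Hspa5 (-0.231 and 0.0466) and -0.248 for Hspe1 (-0.00561 and 0.243). Other probe sets of these genes did not all share this. The 2 other tested Hsp90aa1 probe sets had 0.11 and 0.14 in p57-/- and 0.05 and 0.03 in p57+/+, the second of Hspe1 -0.08 in p57-/- and -0.07 in p57+/+, and the second of Hspa5 -0.05 in p57-/- and -0.09 in p57+/+. The third of Hspa5 had 0.38 in p57-/- and 0.10 in p57+/+. The second of Dnajb1 had opposite signs again, 0.11 in p57-/- and -0.33 in p57+/+.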

How the results depend on the processing

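No heat shock probe set passed the genotype test under any alternative run. The change of Hsph1 stayed between -0.61 and -0.54 over 11 alternatives. With all arrays kept, its limma adjusted p ran from 0.145 to 0.776. The difference of Hspa1b between experiments was -1.58 after quantile normalization, -1.53 with the pseudocount and -1.38 with the mean of its probe sets. Leaving out 1 array returns the difference of 1 genotype, -1.83 or -1.34, by construction. Of 88 values of single genes for the genotypes, 84 kept their direction and side of the threshold. The 4 that turned came from leaving out 1 array, where Hspa1b ran from -0.43 to 1.40, Hsp90aa1 from -0.31 to 0.0091 and Hspe1 from -0.067 to 0.18. Such a fit sets 1 experiment of a genotype against the mean of both experiments of the other. Of 27 differences between experiments under the alternatives that keep all arrays, 22 moved by less than the spread between genotypes. Those that moved more were of Hspa8, Hsph1 and Hspb1, none past -0.26. Over all probe sets, the count past the threshold was 1, against 30 with the replicate block (10 higher, 20 lower), 0 when Present on all 4 arrays was required, which removes Cdkn1c, and 5 to 221 without 1 array. With that block Hsph1 was at an adjusted p of 0.145. The main fit left out the experiment number, which was kept as an alternative because each experiment holds both genotypes. Deviations of arrays with the same experiment number had a correlation of 0.00 across probe sets. For the brightest Hspa1b probe set, which differed between experiments in both genotypes, the block lowered the SE from 0.55 to 0.21. The median difference of the 9 genes between experiments was -0.06, against -0.11 after quantile normalization, -0.12 with the mean of a gene's probe sets and -0.12 to -0.068 without 1 array, each of which leaves 1 genotype. In that case 3 genes, in place of 1, were higher in experiment 2, and 6, in place of 4, were lower, counting Hspa1a by its signal. Dim probe sets such as that of Hspa1a are limited by signal over background.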
